A study of Mus musculus with 12 samples.

Results

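In microglia, 876 of 91770 ATAC-seq peaks were at least 2 times as open in each wild-type (WT) library as in each SgshKO library. They were chosen by the deposited microglia tag values themselves: a peak entered this set of closed peaks when the lower of its 2 WT values was at least 20 tags per 10000000 and at least 2 times the higher of its 2 SgshKO values. The set is 0.955% of the microglia peaks and 1.55% of the 56367 peaks that reach the minimum in WT. The opposite rule, with the genotypes exchanged, was met by 1920 peaks. Since these values chose the set, they are given below as a description without a test. The tests concern NeuN+ and Olig2+ nuclei, whose libraries played no part in the choice.

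Chromatin was profiled in forebrains of C57BL/6 mice, WT or SgshKO, aged 4 months. Microglia came from unfixed tissue by a gate for CD11b, CX3CR1 and low CD45. Nuclei were sorted after light formaldehyde fixation, as NeuN+ nuclei without PU.1 and OLIG2 (neurons) or OLIG2+ nuclei without PU.1 and NeuN (oligodendrocyte lineage). There were 6 groups of 2 libraries, 12 in all. The labels do not say whether 2 libraries of a group came from separate mice, or how many mice were pooled, and give no sex and no description of the allele, so p-values measure only the spread between these libraries. Peaks of the 3 cell types were deposited in 3 tables with 281974 peaks in total.

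ATAC-seq cuts DNA where nucleosomes leave it open, and the number of tags in a peak follows how accessible that stretch was across the cells. Promoters and enhancers show as peaks, and distal enhancers are the more cell-type-specific of the pair. Sgsh encodes sulfamidase, a lysosomal enzyme that degrades heparan sulfate, and its loss is the basis of the lysosomal storage disease mucopolysaccharidosis type IIIA. Microglia are the resident macrophages of the brain. Genes such as P2ry12, Cx3cr1, Sall1 and Csf1r mark their resting state.

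Microglia libraries held 10771659 to 11804222 tags, NeuN+ libraries 14326703 to 17706971, and Olig2+ libraries 15044194 to 19555924. The share of tags inside peaks was 67.4% in microglia SgshKO replicate 1 and 48.7% to 55.8% in the other 3 microglia libraries, so SgshKO replicate 1 stands apart. It was 21.2% and 21.5% in SgshKO and 25.9% and 26.7% in WT NeuN+ libraries, a difference that moves with genotype, and 30.9% to 31.8% in Olig2+ libraries. Summed tags at promoters of 17 microglia marker genes were 4020 to 4915 in the microglia libraries, and those of each of 6 lists of other brain and blood cells 117 to 817. Peaks at promoters of neuron markers summed to 1025 to 1921 tags in NeuN+ nuclei, and those of oligodendrocyte-lineage markers to 3958 to 4605 in Olig2+ nuclei.

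Reference sequence was available for promoters, and 33 closed peaks overlapped a RefSeq promoter window (250 bases before to 50 after a start site) by at least 100 bases, in 38 windows. The stretches below lie inside closed peaks and end at the base before the start site. They are shown because they are promoters that the results turn on: the most open promoter of the set, the next most open, and 3 promoters whose change differed between neurons and the oligodendrocyte lineage. They come from RefSeq on GRCm38.p6, 5′ to 3′ on the gene's strand, with CG dinucleotides in capitals.
Gpr165, chrX:96713326-96713467, plus strand: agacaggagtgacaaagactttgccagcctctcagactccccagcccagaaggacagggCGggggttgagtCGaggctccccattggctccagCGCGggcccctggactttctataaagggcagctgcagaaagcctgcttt
Fam181b, chr7:93079809-93079878, plus strand: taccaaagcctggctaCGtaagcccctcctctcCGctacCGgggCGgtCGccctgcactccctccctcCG
Foxp1, chr6:99028299-99028409, minus strand: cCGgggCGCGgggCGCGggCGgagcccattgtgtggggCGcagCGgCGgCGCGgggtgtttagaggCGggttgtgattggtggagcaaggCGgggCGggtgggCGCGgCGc
Ephb2, chr4:136836013-136836082, minus strand: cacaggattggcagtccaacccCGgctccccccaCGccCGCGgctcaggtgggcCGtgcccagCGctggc
Spock1, chr13:57908333-57908526, minus strand: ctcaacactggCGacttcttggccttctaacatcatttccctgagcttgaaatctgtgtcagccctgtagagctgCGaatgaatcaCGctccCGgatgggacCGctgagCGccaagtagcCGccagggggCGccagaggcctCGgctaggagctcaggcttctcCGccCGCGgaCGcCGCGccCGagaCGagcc

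The promoters differ in how many CG pairs they hold. The Gpr165 stretch has 4 in 142 bases, and the Foxp1 stretch has 17 in 111. Over the whole 300-base windows, the ratio of observed to expected CG was 0.332 at Gpr165, 0.468 at Fam181b, 0.681 at Ephb2, 0.944 at Spock1 and 1.11 at Foxp1. The median was 0.519 (quartiles 0.326 and 0.808) over the 38 windows of closed peaks and 0.798 (0.634 and 0.928) over the 10152 windows of all peaks that reach the WT minimum. A ratio below 0.5 was found in 18 of the 38 windows (47.4%), against 14.1% of the 10152. Among peaks with a lower WT value of 20 to 40, the shares were 44.8% and 19.7%. CG-poor promoters were thus a larger share of this small group than of comparable open promoters; the difference was not tested.

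Short motifs were searched on both strands of the same windows, as a description. PU.1 (GAGGAAGT) was present in 2 of the 38 windows (5.26%) and in 3.86% of windows of peaks that reach the minimum. AP-1 (TGANTCA) was present in 7.89% and 4.28%, SMAD (CAGACA) in 15.8% and 14.7%, and the MITF/TFE E-box (CACGTG) in 2.63% and 10.8%. The shares for the C/EBP motif (TTGCNNAA) were 5.26% and 7.35%, for RUNX (TGTGGTT) 2.63% and 3.5%, and for NR3C1 (AGAACA) 2.63% and 10.4%. The E-box and the NR3C1 motif were each found in 1 window. All 7 motifs were scored separately, and overlaps between them were not removed.

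Closed peaks were mostly of low to moderate height in WT. Their median value was 33.7 and 33.0 tags in the 2 WT libraries and 11.3 and 11.1 in SgshKO replicates 1 and 2. The lower WT value had quartiles of 24.2 and 43.2 tags and a median of 30.5. The median ratio of lower WT to higher SgshKO value was 2.35, with 559 peaks under 2.5, 144 at 3 or more and 16 at 5 or more. SgshKO replicate 1, the library that stands apart, exceeded replicate 2 at 522 of the 876 peaks and so more often set the higher SgshKO value. WT replicate 1 exceeded replicate 2 at 499. Over all microglia peaks the median was 39 and 27 reads in SgshKO replicates 1 and 2, and 38 and 34 in WT. Such counts are not given over all peaks, so they describe no trait particular to closed peaks. Of the peaks that reach the minimum, 3.08% with a lower WT value of 20 to 30 were closed, falling to 0.212% of those at 160 or more.

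**Figure D1:**
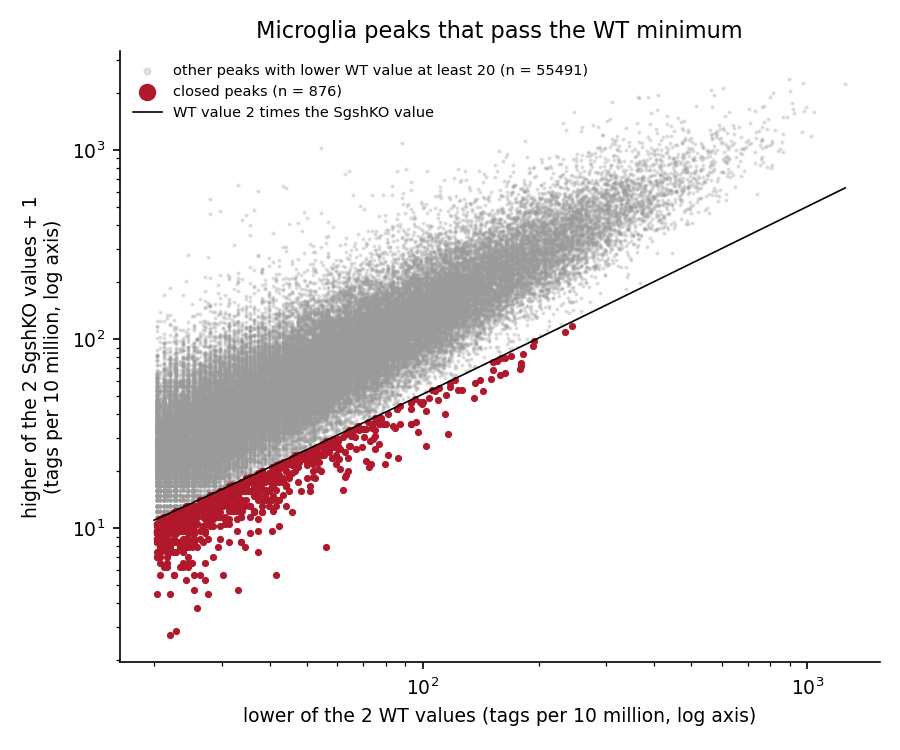
Lower WT value (x, tags per 10000000, log axis) against higher SgshKO value plus 1 (y, log axis) for the 56367 microglia peaks that reach the WT minimum; each point is a peak and the line marks a ratio of 2. The 876 closed peaks (red) lie along the lower edge of the cloud, with most between 20 and 45 tags in WT.

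Limma, fitted across all 91770 microglia peaks on log2(tags + 1), called 666 of the 876 lower, where 2.33% of all microglia peaks were called lower and 5.05% higher. This contrast chose the set, so the count is no evidence about it. The median fitted change was -1.48 on the log2 scale, beside -0.08 over all peaks. Leaving out a WT library reduced the 666 to 17 (without replicate 1) or 13 (without replicate 2), as lower calls over all peaks went from 2134 to 32 and 16. DESeq2 on recovered reads called 287 of the members and 443 peaks in all lower. How many peaks meet the rule depends on scaling and on 1 library: 2207 did after scaling to the sum of tags in peaks, of which 854 were among the 876, and 4784 did without SgshKO replicate 1 (1612 without replicate 2).

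The most open members in WT were distal peaks and 1 promoter. The highest, an intergenic peak on chromosome 3 (104992761 to 104993000) nearest Wnt2b and 8915 bp from the coding gene Cttnbp2nl, had 303 and 244 tags in WT and 105 and 116 in SgshKO. A peak 25794 bp from the start site of Adrb1, a beta-adrenergic receptor, had 235 and 247 tags in WT and 108 and 85.4 in SgshKO. At the promoter of Gpr165, an orphan G-protein-coupled receptor in the homeostatic microglia list, the values were 213 and 182 tags in WT and 82.3 and 35.3 in SgshKO. The 10 highest also included peaks nearest Ap1m1, Mir6995 (inside Sh3pxd2a), Trim33, Btg2, Git2 and Hmgn3. At each of these the SgshKO values lay below both WT values, as the rule demands.

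The steepest members reached a handful of reads in SgshKO. In an intron of Zbtb16, a zinc-finger factor known as a strong glucocorticoid target, WT values of 57.9 and 55.9 tags stood against 6.93 and 5.57. A peak 215695 bp from Tusc1 had 32.8 and 22.03 tags in WT and 1.73 and 0 in SgshKO, and one in Smap2 (nearest Mir7015) had 29.4 and 22.9 against 0.87 and 1.86. The last 2 are under the floor of 3 reads in SgshKO (2.79 tags), so no fold is given for them. Members with a large ratio also lay nearest Galnt12, Nhs and Mir3107 (inside Ank1). In all, 7 closed peaks had an SgshKO library at 0 tags.

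Closed peaks were distal more often than other open peaks. Only 85 (9.7%) were annotated as promoter, against 23.6% of the peaks that reach the WT minimum. Introns held 439 (50.1% against 41.6%), intergenic sequence 238 (27.2% against 26.1%), exons 46 (5.25% against 3.36%) and 3′ UTRs 25 (2.85% against 1.3%). The median distance to the nearest start site was 14586 bp, against 6246 bp. Within 1000 bp of a start site lay 148 closed peaks (16.9% against 32.4%), and 72 (8.22% against 4.54%) lay more than 100000 bp away.

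The difference was also present, though smaller, among peaks of like height in WT. Of peaks with a lower WT value of 20 to 40, 18.2% of the closed and 25% of all lay within 1000 bp of a start site. At 40 or more the shares were 13.8% and 37.5%, but heights in that open-ended range were not alike. The closed share fell within it from 1.19% at 40 to 80 tags to 0.212% at 160 or more. Seen from the other side, 0.638% of promoter peaks that reach the minimum were closed, 1.87% of intronic, 1.62% of intergenic, 2.43% of exonic and 3.42% of 3′ UTR peaks. Widths were alike, with medians of 229 and 236 bp. The authors' Peak Score was at its ceiling of 1000 for 75.3% of the closed peaks and 91.0% of those that reach the minimum.

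**Figure D2:**
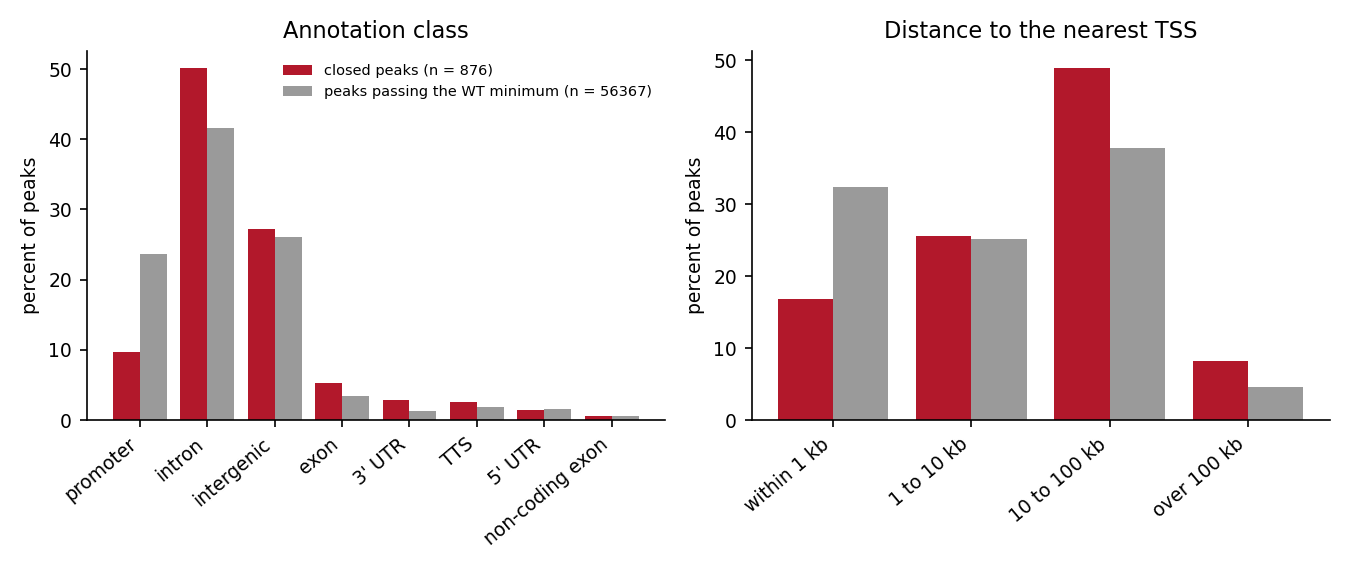
Percent of peaks (bars from 0) by annotation class (left) and by distance to the nearest start site (right), for the 876 closed peaks (red) and the 56367 microglia peaks that reach the WT minimum (grey). Closed peaks are fewer at promoters (9.7% against 23.6%) and more frequent in introns and beyond 10 kb.

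By chromosome, Y and unplaced scaffolds aside, the closed share of peaks that reach the minimum ran from 0.933% on X and 1.02% on chromosome 5 to 3.3% on chromosome 13. Chromosome 13 held 77 closed peaks. The group at Pik3r1, described below, is on chromosome 13. Of the closed peaks, 20 lie where short reads place poorly: 13 at the start of chromosome 4, 2 at the end of Y and 5 on unplaced scaffolds. Both Y peaks that reach the minimum were closed, and 5 of the 32 on unplaced scaffolds.

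Closed peaks were found beside other closed peaks. Among peaks that reach the minimum within 1000 bp of a closed peak, 120 of 511 (23.5%) were closed too, against 1.55% overall. The share was 13% within 25000 bp, 7.58% within 100000 bp and 2.88% within 1000000 bp. Without the start of chromosome 4, Y and unplaced scaffolds it was 21.8% within 1000 bp and 11.2% within 25000 bp, against 1.52% overall. Chained at gaps of at most 25000 bp, 253 of the 876 (28.9%) fell into 88 clusters, 26 of which held 3 or more and 12 held 4 or more. Neighbouring peaks share their library values and, where they abut, can be parts of one accessible region, so the members of a cluster are not independent.

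**Figure D3:**
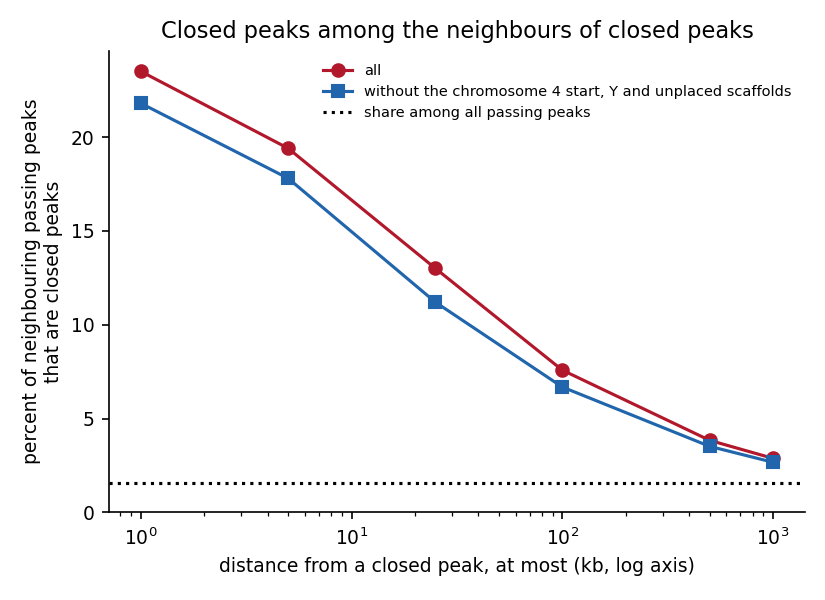
Percent of neighbouring peaks that reach the WT minimum and are themselves closed (y), by the largest distance allowed (x, kb, log axis), for all closed peaks (red circles) and without the chromosome 4 start, Y and unplaced scaffolds (blue squares). The share falls from 23.5% within 1 kb to 2.88% within 1000 kb, and the dotted line marks 1.55% among all such peaks.

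By the nearest gene in the authors' annotation, the 876 peaks belonged to 674 genes, of which 568 had 1 closed peak, 72 had 2 and 34 had 3 or more. In RefSeq, 611 (69.7%) lay inside a protein-coding gene. Pik3r1 led with 18 closed peaks. The 13 at the start of chromosome 4 are assigned to Vmn1r2, and other coding genes with many were Fam102b with 8, Elmo1 with 7, Frmd4a and Ifitm10 with 6, and Basp1 and Rhob with 5.

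Pik3r1, which encodes the regulatory subunits of class I phosphoinositide 3-kinase, held the largest cluster. On chromosome 13 from 101699873 to 101765272, inside the gene, 17 of the 29 peaks that reach the minimum were closed, out of 43 peaks in all. Their fitted changes ran from -2.93 to -1.26 log2. The other 26 peaks there had a median of -1.02 log2, and 25 of them were below 0. The strongest single peak (101751861 to 101752063) had 27.7 and 33.0 tags in WT and 3.46 and 2.79 in SgshKO. Elsewhere in the gene, 101753771 to 101754091 had 102 and 127 tags in WT against 24.2 and 26.0 in SgshKO. A peak of similar height nearer the start site, 101762984 to 101763342, had 137 and 136 tags in WT and 55.4 and 57.6 in SgshKO. The remaining closed peak nearest Pik3r1 lies 43799 bp beyond the gene, at 101812016 to 101812266, with 63.1 and 62.7 tags in WT and 16.5 and 17.6 in SgshKO. Counted by nearest gene, 18 of the 47 Pik3r1 peaks that reach the minimum were closed.

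At Fam102b every peak that reaches the minimum within the cluster was closed: 7 of 7 in 10767 bp of intron on chromosome 3 from 109008278. The tallest had 73.5 and 103 tags in WT and 20.8 and 16.7 in SgshKO, and the steepest 25.9 and 27.1 against 2.6 and 2.79. An eighth closed peak lies 17373 bp outside the gene. The cluster is cut at its outermost closed peaks. Counted by nearest gene, 8 of the 19 Fam102b peaks that reach the minimum were closed. At Basp1, a membrane protein of growth cones, 6 of 20 were closed over 49320 bp on chromosome 15, one of them at the promoter of the neighbouring Gm5468. The tallest Basp1 peak had 94.2 and 83.9 tags in WT and 22.5 and 33.4 in SgshKO, and by nearest gene 5 of the 31 Basp1 peaks were closed.

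Ifitm10, of the interferon-induced transmembrane family, held 6 closed peaks of the 42 nearest it that reach the minimum. All 6 lay in a cluster on chromosome 7 from 142354964 to 142367012, where 15 peaks reach the minimum. One closed peak (142356203 to 142356434) had 148 and 141 tags in WT and 59.7 and 34.4 in SgshKO. The nearer edge of the next coding gene, Ctsd, which encodes the lysosomal protease cathepsin D, lies 8898 bp beyond that cluster. In the 30 kb above the cluster end, the direction turned: 42 peaks had a median of 0.43 log2, and 10 of them were below 0. Inside the cluster 21 of 22 peaks were below 0. This boundary was noticed after the values were seen.

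Inside each of 7 clusters of 5 or more closed peaks (nearest Pik3r1, Fam102b, Basp1, Ifitm10, Cdk5rap3, Rhob and Mir6983), at most 1 peak lay above 0. Each cluster runs from its first to its last closed peak, so low values inside it follow in part from the rule. Outside, within 30 kb of the ends, the median change per side ran from -1.41 to 0.43 log2, and at Fam102b it was -1.30 below the start.

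**Figure D4:**
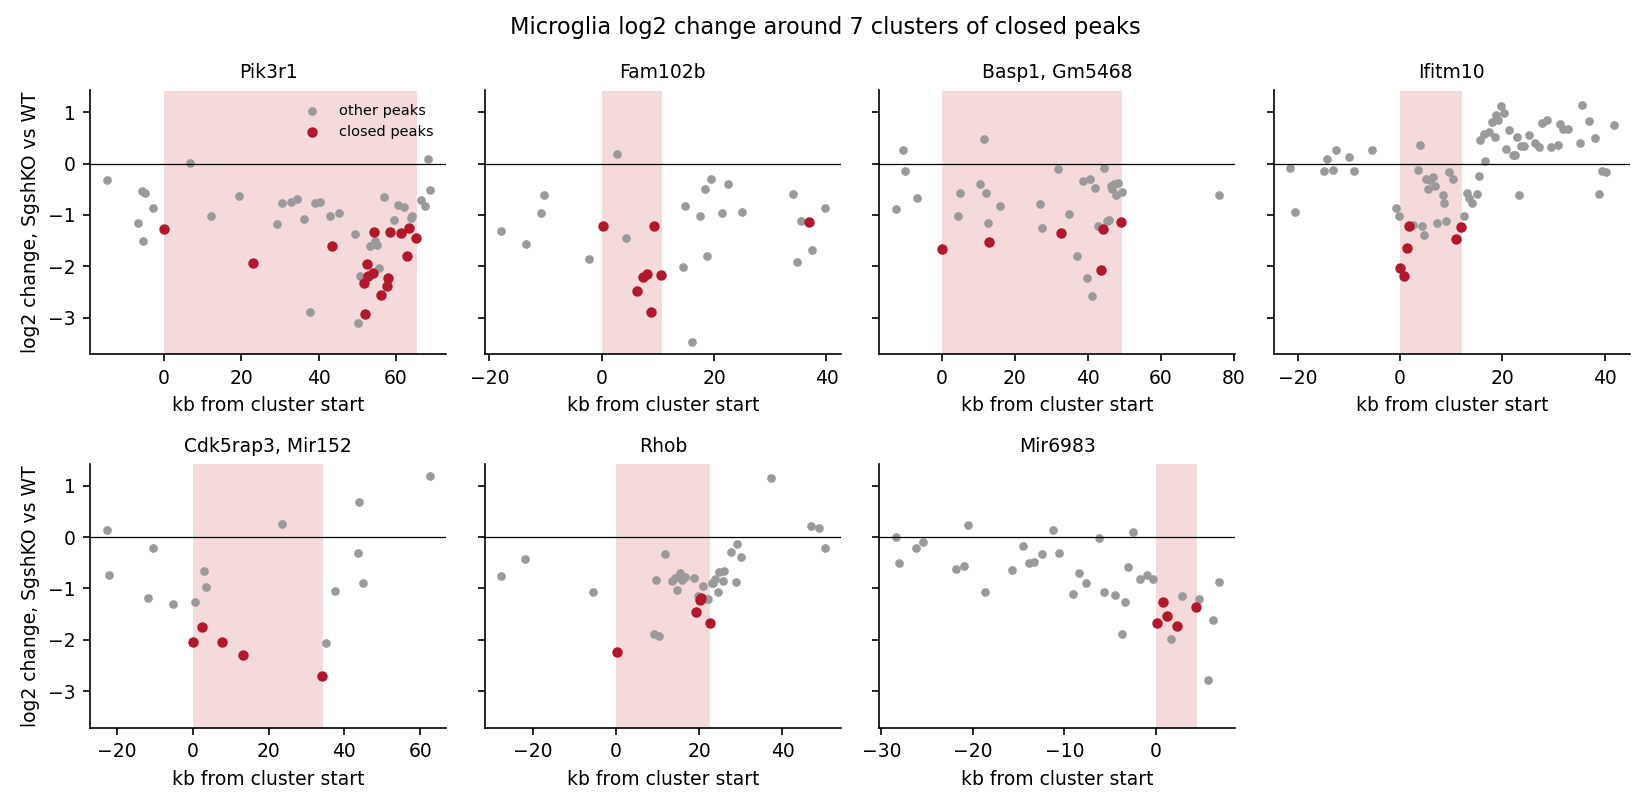
Fitted microglia log2 change (y, SgshKO against WT, shared axis) of every peak within 30 kb of 7 clusters of 5 or more closed peaks, by distance from the cluster start (x, kb); shading marks the cluster, red points the closed peaks and grey points other peaks. Nearly all points inside the shading lie below 0, and at Ifitm10 most points beyond the cluster end lie above 0.

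Near Csf1r, the receptor on which microglia survival depends, 5 of 6 peaks that reach the minimum were closed in 4535 bp of chromosome 18 (61133985 to 61138519). The authors' table assigns them to Mir6983. They lie inside Hmgxb3 and begin 2846 bp past the Csf1r gene. The tallest had 115 and 124 tags in WT and 49.4 and 48.3 in SgshKO. This stretch runs from its first to its last closed peak. Of the 20 peaks nearest Mir6983 that reach the minimum, 5 were closed. The 30 kb below the stretch, which take in the Csf1r gene, held 28 peaks. Of these 0 were closed and 1 was called lower, with a median change of -0.57 log2.

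Some of the other clusters, chosen after their values were seen, lay near or in immediate early and transcription factor genes. At Klf2, a zinc-finger factor, 4 of the 25 peaks nearest the gene that reach the minimum were closed, all within 1662 bp, 4580 bp from the gene, and the first of them had 68.3 and 94.0 tags in WT and 32.0 and 16.7 in SgshKO. At Egr1, a factor induced by many stimuli, 3 of 23 such peaks were closed, and the tallest had 131 and 116 tags against 30.3 and 26.0. At Btg2, an antiproliferative immediate early gene, 3 of 26 were closed, all within 1688 bp, 1372 bp from the gene; the tallest had 180 and 185 tags in WT and 71.0 and 70.6 in SgshKO. Rhob, a stress-induced small GTPase, had 5 of 30 closed, over 22611 bp that end 2343 bp from the gene, with 110 and 93.2 tags against 27.7 and 34.4 at the nearest. Runx1, a factor of myeloid cells, had 3 of 53 closed, the tallest with 93.3 and 94.9 tags against 41.6 and 41.8. Elmo1, an adaptor of phagocytic engulfment, and Frmd4a had 7 of 59 and 6 of 51 closed, of which 3 lay within 25192 bp at Elmo1 and 4 within 26192 bp at Frmd4a.

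The 13 closed peaks at the start of chromosome 4 (3054211 to 3085892) stand apart from all of these. They lie over 86 kb from the nearest coding gene, Vmn1r2, next to the centromere, and 13 of 14 peaks that reach the minimum there were closed. WT replicate 1 exceeded replicate 2 at 11 of the 13, as at 3083169 to 3083386 with 86.4 and 56.8 tags in WT and 17.3 and 26.9 in SgshKO. The 2 closed peaks on Y (from 90741029 and 90744431) had 37.2 and 38.1, and 43.2 and 33.0, tags in WT, and 0 and 6.5, and 0 and 3.71, in SgshKO. In these 3 tables Y peaks start at or beyond 90738193, next to the region that Y shares with X. Whether mice of the groups differed in sex or copy number there was not tested.

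Gene lists show where closed peaks gathered by nearest gene. Of the 455 peaks of 39 homeostatic microglia genes that reach the minimum, 18 (3.96%) were closed, at 12 genes, beside 1.55% of all such peaks. Golm1 held 3 of them. Immediate early genes had 21 of 455 (4.62%) at 9 genes, with Rhob 5, Klf2 4, and Btg2 and Egr1 3 each. Microglia transcription factors had 14 of 661 (2.12%) at 9 genes, and glucocorticoid-responsive genes 8 of 271 (2.95%) at 7. The lists overlap: Klf2 and Klf4 stand in the lists of factors and of immediate early genes. Sall1 stands in the homeostatic and factor lists, and Mertk in the homeostatic and glucocorticoid-responsive lists. Per1 stands in the glucocorticoid-responsive and clock lists, so its 2 closed peaks count in both. Cx3cr1, P2ry12 and Sall1 are also in the list of microglia markers.

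In 6 further lists the shares lay from 0.272% to 1.59%, beside the 1.55%, with no test of a difference. Disease-associated microglia genes had 1 of 185 (0.541%), an Ephx1 peak with 21.6 and 22.9 tags in WT and 5.19 and 5.57 in SgshKO. Chemokine, cytokine and Toll-like receptor genes had 2 of 239 (0.837%), nearest Ccl12 and Tlr1, and interferon-response genes 1 of 69 (1.45%), near Zbp1. Lysosome and autophagy genes had 1 of 367 (0.272%), nearest Map1lc3a, and the other 76 genes of the list had 0. TGF-beta signalling had 3 of 385 (0.779%), 2 of them beyond Tgfbr1, and clock genes 2 of 126 (1.59%), both in Per1 exons. Over all peaks of a list, closed or not, the median microglia change was -0.37 log2 for the 741 peaks of homeostatic genes. It was 0.25 for the 363 of disease-associated genes, beside -0.08 over all peaks. For the 622 peaks of immediate early genes it was -0.06, and for the 447 of glucocorticoid-responsive genes -0.09, both near that of all peaks. For the 1101 peaks of microglia transcription factors it was -0.2.

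Markers of other cell types gave at most 1 closed peak each: Slc1a3 (astrocytes, 1 of 33, 3.03%), Vcan (blood and border myeloid cells, 1 of 38, 2.63%) and Cd79b (lymphocytes, 1 of 24, 4.17%), and 0 of 23, 0 of 37 and 0 of 38 for the neuron, the oligodendrocyte and the endothelial and mural lists. Microglia markers had 6 of 183 (3.28%). As a share of tags in peaks, microglia marker promoters took 0.0879% and 0.0897% in WT and 0.0729% and 0.0749% in SgshKO, so this share was lower in SgshKO, while the summed tags of the genotypes (4899 and 4365, 4915 and 4020) overlapped. Shares of the neuron, astrocyte, oligodendrocyte-lineage, endothelial and mural, and lymphocyte lists were likewise lower in both SgshKO libraries than in either WT library. The oligodendrocyte-lineage share, for example, was at least 0.0138% in each WT library, yet at most 0.0121% under SgshKO. Only the share of blood and border myeloid markers overlapped between genotypes. The drop was thus not particular to microglia markers. In sorted cells, fewer microglia in the sort and less access per microglia cannot be told apart. Among very long neuronal adhesion genes 3 of 37 (8.11%) were closed, all in introns of Csmd3, one with 72.6 and 108 tags in WT and 19.9 and 12.1 in SgshKO.

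Closed peaks also lay at other genes of resting microglia, named after their values were seen. They were a minority of the peaks nearest each gene that reach the minimum. The counts were 1 of 6 at P2ry12, 2 of 14 at Cx3cr1, 1 of 17 at Mertk, 1 of 3 at Upk1b and 1 of 28 at Sall1. Of the 39 homeostatic genes, 27 had no closed peak. Intronic P2ry12, the microglial ADP receptor, had 51.0 and 51.7 tags in WT and 22.5 and 15.8 in SgshKO. An intron of Cx3cr1, the fractalkine receptor, had 45.8 and 41.5 against 12.1 and 10.2, and Mertk, a receptor for apoptotic cells, 38.0 and 28.0 against 6.06 and 9.28. The Upk1b promoter had 75.2 and 83.9 tags in WT and 25.1 and 13 in SgshKO. A peak 340765 bp from Sall1, the factor that marks microglia among macrophages, had 21.6 and 22.9 against 7.79 and 4.64.

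The closed places were looked up in the NeuN+ and Olig2+ peak tables, with no test of the shares. Of the 876, 521 (59.5%) overlapped no NeuN+ and no Olig2+ peak by even 1 bp, against 52.5% of peaks that reach the minimum. A peak was present in NeuN+ nuclei at 277 (31.6% against 40.7%), in Olig2+ nuclei at 254 (29.0% against 37.6%), and in both at 176 (20.1% against 30.7%). Beyond 1000 bp from a start site the order was the other way: 26.1% of closed and 24.4% of all had a NeuN+ peak, and 26.0% and 22.2% an Olig2+ peak. A missing overlap says that no peak was listed there, not that the place was shut.

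In NeuN+ nuclei, 94 of the 277 overlapping peaks (33.9%) were called lower and 2 (0.722%) higher by limma, where 19.6% of all NeuN+ peaks were called lower and 10.2% higher. Over all locations, closed peaks were not ahead of other microglia peaks in this, but the heights compared were unlike. The median WT value in NeuN+ nuclei was 17.3 tags at closed peaks and 31.5 at all microglia peaks that reach the minimum. Of the NeuN+ peaks that overlap any microglia peak reaching the minimum, 45.5% were lower and 1.6% higher. The median change was -0.55 log2 for the closed peaks and -0.53 for the latter, against -0.23 over the NeuN+ table. Within 1000 bp of a start site 37.9% of closed and 57.4% of all were lower, with median WT values of 22.3 and 54.6 tags. Farther away, where these medians were closer (15.0 and 17.5 tags), the shares were 32.1% and 28.2%. The part of height in these shares was not tested.

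The number of NeuN+ calls moved with scaling. With tags scaled to the sum in peaks, 37 were lower and 8 higher (13.4% and 2.89%, beside 8.86% and 17.6% of all NeuN+ peaks), and the median of all NeuN+ peaks moved from -0.23 to 0.05 log2. After quantile normalization 31 were lower and 3 higher (11.2% and 1.08%, beside 5.9% and 9.62%). Relative to the median of all NeuN+ peaks, the median of the closed places lay at -0.32 log2 as deposited, -0.32 with tags scaled in peaks and -0.34 after quantile normalization. Without either SgshKO library limma called 0 of the 277 (99 and 94 lower at an unadjusted p under 0.05, without replicate 1 and 2) and 0 of all 107627 NeuN+ peaks. On all 4 libraries edgeR called 50 lower (18.1%, beside 11.5% of all) and DESeq2 6 (2.17%, beside 2.07%).

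Neuron marker promoters took 0.0719% and 0.069% of the tags in peaks in WT NeuN+ libraries and 0.0476% and 0.0503% in SgshKO. Each of the other marker lists also held a smaller share in both SgshKO NeuN+ libraries than in either WT library. For oligodendrocyte-lineage markers it was at least 0.00958% in each WT library, yet at most 0.00709% under SgshKO. The drop was thus not particular to neuron markers, and its part in the calls was not tested. Among the strongest calls, the promoter of Sntg2, a syntrophin, fell from 59.5 and 58.7 tags in WT to 23.03 and 28.6 in SgshKO (log2 -1.17 ± 0.18 SE, n = 2 per genotype, limma adjusted p = 0.00019). The Rnf150 promoter fell from 39.1 and 44.6 to 18.9 and 12.7 tags (-1.37 ± 0.23, limma adjusted p = 0.000333). A peak at the end of Gdf1 and Cers1 fell from 70.2 and 75.7 to 35.6 and 34.3 tags (-1.04 ± 0.16, limma adjusted p = 0.000162). In each of the 3, both SgshKO values lay below both WT values, and each was called under tags scaled in peaks, quantile normalization, edgeR and DESeq2 too. The Btbd3 promoter fell as well (-0.79 ± 0.12, limma adjusted p = 9.35e-05), but not by quantile normalization (-0.24, adjusted p = 0.121).

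The Y peak at 90741029 was lower in NeuN+ nuclei as in microglia, with 60.04 and 45.7 tags in WT and 11.2 and 16.5 in SgshKO (-1.87 ± 0.23, limma adjusted p = 2.08e-05), and the second Y peak was called lower too. The Gpr165 promoter had 62.9 and 45.7 tags in WT and 41.9 and 26.0 in SgshKO NeuN+ nuclei, called lower as deposited (-0.68 ± 0.22, limma adjusted p = 0.0247) but not with tags scaled in peaks (adjusted p = 0.16). The 2 members called higher lay near 4930402F06Rik, with 14.2 and 11.9 tags in WT and 25.1 and 29.2 in SgshKO (1.01 ± 0.24, limma adjusted p = 0.00525), and 4933430N04Rik (0.92 ± 0.34, limma adjusted p = 0.0469).

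In Olig2+ nuclei, 41 of 254 overlapping peaks (16.1%) were called lower and 10 (3.94%) higher, where 11.7% of all Olig2+ peaks were lower and 8.17% higher. Olig2+ peaks over microglia peaks that reach the minimum were lower in 10.6% and higher in 11.9%. The median change of the closed places was -0.31 log2, against -0.01 for those and -0.07 for the whole table. By location the medians were -0.36 against -0.17 beyond 1000 bp from a start site and 0.03 against 0.07 within it. The lower calls were distal: 36 of 189 beyond 1000 bp from a start site (19.0%, against 14.9% of all such microglia peaks), and 5 of 65 nearer (7.69% against 7.73%). By edgeR 33 were lower and 17 higher (13% and 6.69%, beside 10% and 11.6% of all Olig2+ peaks). The counts were 32 and 14 after quantile normalization (12.6% and 5.51%, beside 7.81% and 8.89%) and 7 and 3 by DESeq2 (2.76% and 1.18%, beside 1.7% and 2.64%). Leaving out a WT library cut the number of calls over the whole Olig2+ table as well as at the closed places. Against the median of all Olig2+ peaks, that of closed places then lay at -0.178 log2 (WT replicate 1 dropped) or -0.257 (replicate 2 dropped). With every library kept it was -0.234.

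The 3 Olig2+ calls with the smallest p lay near Zbtb16 and Pik3r1. In the Zbtb16 intron (chromosome 9, 48723763 to 48723964) Olig2+ values were 25.9 and 33.8 tags in WT and 2.46 and 5.98 in SgshKO (log2 -2.64 ± 0.33 SE, n = 2 per genotype, limma adjusted p = 1.08e-06). A second closed peak 2335 bp from Zbtb16, whose nearest start site is that of Nnmt, had 63.3 and 72.1 tags in WT Olig2+ nuclei and 21.5 and 19.3 in SgshKO (-1.68 ± 0.19, limma adjusted p = 2.06e-07). In microglia that peak had 74.3 and 76.2 tags in WT and 28.6 and 22.3 in SgshKO. The peak 43799 bp from Pik3r1 fell from 51.4 and 59.3 to 13.5 and 13.3 tags in Olig2+ nuclei (-1.96 ± 0.22, limma adjusted p = 1.11e-07). Values of the 2 genotypes were far apart at all 3, and each was called by edgeR, with tags scaled in peaks and after quantile normalization.

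Other Olig2+ calls were smaller or lower in tags. An intron peak of Wbp1l fell from 17.6 and 19.9 to 2.46 and 5.98 tags (-2.01 ± 0.35, limma adjusted p = 0.000142). The promoter of Cacng2, which encodes the auxiliary AMPA receptor subunit stargazin, fell from 90.8 and 88.5 to 48.6 and 51.9 (-0.82 ± 0.15, limma adjusted p = 0.000198). A peak near Errfi1, a feedback inhibitor of the EGF receptor from the glucocorticoid-responsive list, fell from 34.8 and 31.2 to 8.61 and 18.6 (-1.31 ± 0.27, limma adjusted p = 0.00116). By contrast, the 17 closed peaks inside Pik3r1 had 5 overlaps with an Olig2+ peak, whose changes of -0.83 to 0.15 log2 did not pass the test (limma adjusted p = 0.0711 to 0.781).

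Among the places that rose in Olig2+ nuclei was S1pr4, a sphingosine-1-phosphate receptor, from 18.2 and 22.5 tags in WT to 40.6 and 49.9 in SgshKO (1.12 ± 0.21, limma adjusted p = 0.000404). The Eif4g3 promoter, of a translation initiation factor, rose from 43.1 and 45.5 to 70.1 and 74.5 tags (0.69 ± 0.16, limma adjusted p = 0.00261). An intergenic peak near Arhgap5 rose from 262 and 242 to 336 and 332 tags (0.41 ± 0.08, limma adjusted p = 0.00047), where microglia had only 32.0 and 27.1 tags in WT and 11.3 and 6.5 in SgshKO. In all 3 the SgshKO values exceeded both WT values.

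Of the 176 closed places with a peak in both kinds of nuclei, 10 were lower in both (Zbtb16 and its neighbour among them), 54 lower in NeuN+ only by call, 16 lower in Olig2+ only by call, 5 lower in NeuN+ and higher in Olig2+ nuclei, and 4 higher in Olig2+ only by call. Neither was called at 87. Of the 17326 peaks that reach the minimum and have both counterparts, 4.97% were lower in both, beside 5.68% of the closed places. For lower in NeuN+ only the shares were 39.9% and 30.7%, for lower in Olig2+ only 5.24% and 9.09%, for lower in NeuN+ and higher in Olig2+ 8.13% and 2.84%, and for higher in Olig2+ only 4.52% and 2.27%. The difference itself was tested by the interaction term over 158 one-to-one pairs: 30 were more negative in NeuN+ and 2 in Olig2+ nuclei. Of all 29576 such pairs 31.7% were called more negative in NeuN+ and 3.29% in Olig2+, beside 19.0% and 1.27% of the closed places. The median difference was -0.33 log2, against -0.41 over all pairs. With tags scaled in peaks the split was 9 and 19 (2530 and 3638 over all pairs), and after quantile normalization 13 and 8 (2856 and 2688), so the prevailing direction depends on scaling.

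At the Foxp1 promoter, of a forkhead transcription factor, NeuN+ values fell from 38.5 and 53.1 tags in WT to 17.5 and 20.95 (log2 -1.20 ± 0.22), while Olig2+ values rose from 5.71 and 2.56 to 16.6 and 12.0 (1.63 ± 0.36). The changes differed by -2.83 ± 0.43 log2 (limma interaction, adjusted p = 3.21e-06). At the Ephb2 promoter, of an ephrin receptor, NeuN+ tags fell from 33.4 and 26.5 to 16.1 and 19.1, and Olig2+ tags rose from 5.71 and 8.69 to 26.4 and 18.6; the changes differed by -2.26 ± 0.39 (adjusted p = 2.57e-05, limma). The Olig2+ values in WT were low at both promoters, whose sequences are given above.

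Spock1, a brain proteoglycan, fell at its promoter in NeuN+ nuclei from 49.3 and 47.4 to 24.4 and 14.0 tags (-1.34 ± 0.23, limma adjusted p = 0.000481), with Olig2+ values of 22.3 and 28.1 in WT and 33.8 and 40.6 in SgshKO (0.55 ± 0.21, adjusted p = 0.0659). The difference was -1.89 ± 0.33 (limma adjusted p = 2.54e-05). Sema6d, a guidance semaphorin, had 3 closed peaks within 1934 bp of its promoter and first exon, and the first promoter peak differed by -1.73 ± 0.31 (limma adjusted p = 4.35e-05). The differences at Foxp1, Ephb2, Spock1, this Sema6d peak, Gdf1, Fam181b, Per1 and Zbtb16 were also called with tags scaled in peaks and after quantile normalization. Zbtb16 was one of the 2 with the larger fall in Olig2+ nuclei (difference 2.00 ± 0.42, limma adjusted p = 0.000272); the other lay near Tom1l1.

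**Figure D5:**
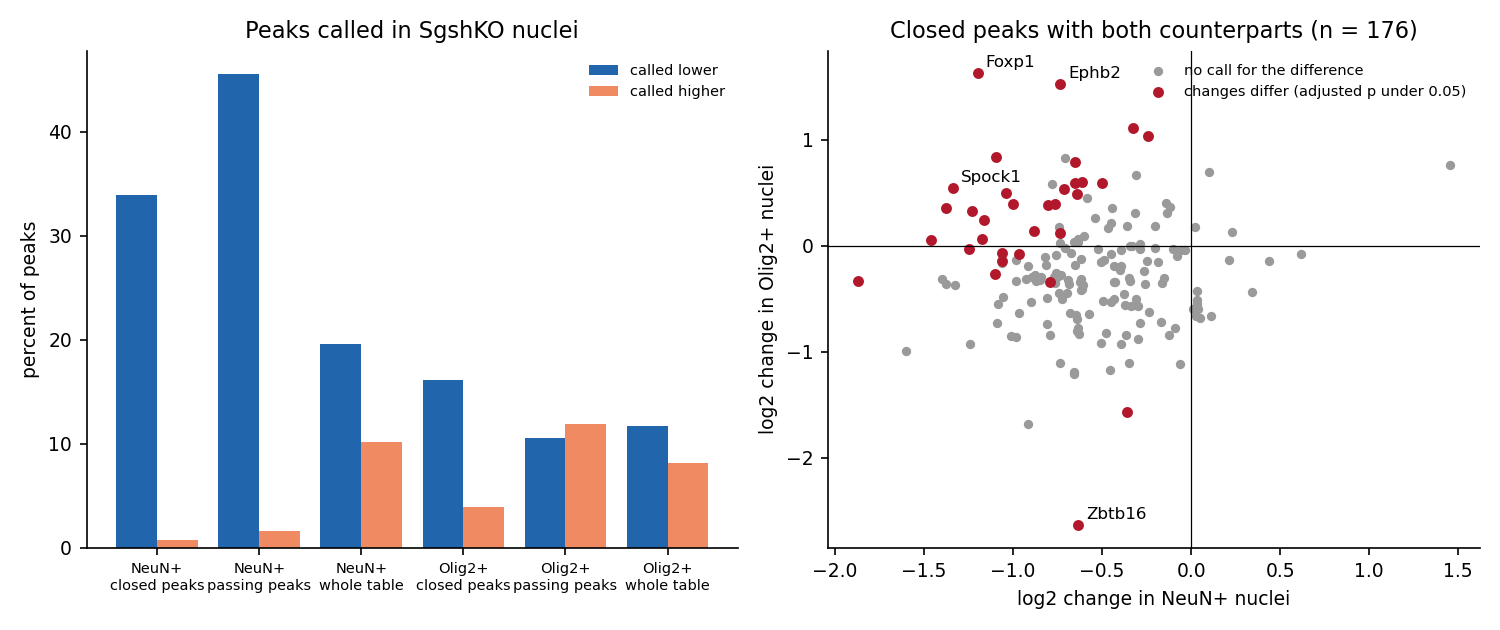
Left, percent of NeuN+ and Olig2+ peaks called lower (blue) or higher (orange) in SgshKO for closed peaks, peaks that reach the WT minimum in microglia, and the whole table (bars from 0); closed peaks stand at 33.9% lower in NeuN+ and 16.1% in Olig2+ nuclei. Right, log2 change in NeuN+ (x) against Olig2+ nuclei (y) for the 176 closed peaks with both counterparts, with red marking a called difference; Foxp1, Ephb2 and Spock1 lie at upper left and Zbtb16 at the bottom.

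At the edges of the rule, the 3 peaks just inside the ratio were nearest Notch3 (40.6 and 38.1 tags in WT, 19.1 and 11.1 in SgshKO), Pon1 and Ncoa3, with ratios of 2.00 to 2.01. Those just outside were nearest Gpr12, Cd84 and Atox1, each at 2.00 when rounded and 1.998 before. Just above the minimum lay peaks nearest Tusc1, Rflna and Sirpa with a lower WT value of 20.3 tags, and just below it peaks nearest Naaladl2, Gab1 and Mir8110 at 19.9. A further 1734 microglia peaks met the ratio but not the minimum.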

How the data were processed

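The authors deposited 1 table per cell type, in which the signal is tags per peak in each library, scaled to a library total of 10000000 per the file headers. Bowtie2, HOMER and build mm10 are named in the submitters' processing notes; handling of duplicates and of multiply mapped reads is not stated in the labels. The deposited Peak Score is a score by the authors and only described peaks. Dividing out the header totals gave whole reads for 100% of values (tolerance 0.01), and 0 sample columns were left over. Gene names turned into dates were restored from Entrez numbers (169, 202 and 168 peaks). Promoter windows and gene bounds came from RefSeq GRCm38.p6, whose primary chromosomes share mm10 coordinates.

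Python 3.11.15 applied the rule to the 4 microglia libraries. Limma 3.58.1 (R 4.3.3, trend) tested log2(tags + 1) per table without a filter, with Benjamini-Hochberg adjustment over the whole table and calls under 0.05; log2(value + 1) understates changes of low peaks. Recovered reads were tested with edgeR 4.0.16 and DESeq2 1.42.0 as alternatives. Peaks of 2 tables were matched by any overlap, keeping the longest, and the interaction used one-to-one pairs with 50% reciprocal overlap. The scripts were tested on simulated data. Same-numbered libraries did not deviate together (correlations 0.042, 0.004 and 0.001), so no block was used. The set, the gene lists, the motifs and the rule for named genes were chosen with earlier results of these data known. That rule takes the 10 highest in WT, the 10 largest ratios, the 10 genes with most members, the 5 largest clusters, the 10 highest at start sites, up to 4 per list, up to 5 per kind of call in the nuclei and the 3 peaks on each side of a threshold. The results of 4 genes are not reported here, and counts over gene lists were made without them.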

Additional observations from a re-analysis of the deposited data

Results flagged for a closer look

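For 15 closed peaks named by the rule, the genotype change differed between NeuN+ and Olig2+ nuclei by the limma interaction term (adjusted p under 0.05). The log2 difference, NeuN+ minus Olig2+, was -2.83 at Foxp1, -1.89 at Spock1, -2.26 at Ephb2, -1.73 and -1.02 at 2 Sema6d peaks, -1.54 at Gdf1, -1.13 near Klf4, -1.44 at S1pr4 and -0.89 at the peak nearest Wnt2b. It was -1.54 at the Y peak nearest G530011O06Rik, -1.56 at Fam181b, -1.93 in Per1, -1.24 at Sntg2 and -0.44 at Btbd3. At Zbtb16 it was 2.0, with the larger fall in Olig2+ nuclei. Of these 15, 8 were also called with tags scaled to the sum in peaks and 10 after quantile normalization, and the sign at Btbd3 turned under both. NeuN+ SgshKO libraries had a lower share of tags in peaks than WT, and its part in these differences was not tested.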

How the results depend on the processing

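The number of closed peaks, 876 as chosen, was 2218 with a tag minimum of 10, 260 with 40, 3300 with a ratio of 1.5, 144 with a ratio of 3 and 2207 with tags scaled to the sum in peaks. Leaving out 1 library gave 1612 to 4784. With median-of-ratios scaling it was 780 (560 shared with the 876) and after quantile normalization 747 (517 shared). Of the 666 called lower in microglia, leave-one-out gave 13 to 845 and DESeq2 287. In NeuN+ nuclei the 94 lower became 37 with tags scaled in peaks, 31 after quantile normalization, 50 by edgeR, 6 by DESeq2 and 0 to 28 by leave-one-out. The 2 higher there became 1 with a pseudocount of 0.5 or 50% reciprocal overlap. They became 8 with tags scaled in peaks, 5 by edgeR and 0 by DESeq2 (2 at an unadjusted p under 0.05).

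In Olig2+ nuclei the 41 lower became 7 by DESeq2 and 17 to 51 by leave-one-out, and the 10 higher became 17 by edgeR, 3 by DESeq2, 6 with 50% reciprocal overlap and 4 to 10 by leave-one-out. Relative to the median of all peaks, the median change in NeuN+ nuclei (-0.321) was -0.242 with a pseudocount of 5 and -0.349 to -0.285 by leave-one-out. In Olig2+ nuclei (-0.234) it was -0.195 with a pseudocount of 5, -0.224 after quantile normalization and -0.257 to -0.178 by leave-one-out. The 30 and 2 places whose change differed between nuclei became 9 and 19 with tags scaled in peaks. After quantile normalization they were 13 and 8. Over the 158 pairs, the median difference (-0.335) was -0.388 to -0.27 by leave-one-out. With a replicate block, 862 were called lower in microglia (98.4%, beside 6.11% of all microglia peaks). In NeuN+ nuclei 108 were lower and 3 higher (39% and 1.08%, beside 21.9% and 11.3% of all). In Olig2+ nuclei the counts were 43 and 11 (16.9% and 4.33%, beside 12.5% and 8.82%). For the difference they were 34 and 2, beside 9710 and 1045 over all 29576 pairs. The cause of these shifts was not tested.

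Signs turned at Btbd3 for the difference (0.095 with tags scaled in peaks, 0.184 after quantile normalization), and in NeuN+ nuclei after quantile normalization at Adgrl1 (0.108) and Hmgn3 (0.212). A group of 2 libraries, with median counts per peak of 17 to 39 reads, limit what could be called. The alternatives with the authors' Peak Score at 1000 (660 peaks) and without the chromosome 4 start, Y and unplaced scaffolds (856) were chosen after seeing the data.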
